A study of Arabidopsis thaliana with 6 samples.

Results

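The unfolded protein response of the endoplasmic reticulum (ER) was examined through 10 Arabidopsis thaliana genes on expression arrays, chosen by locus and each read by a single probe set among the 22810 on the array. Each probe set combines several short oligonucleotides matched to the same transcript. The 10 genes were 6 regulators (BZIP60, AT1G42990; BZIP28, AT3G10800; BZIP17, AT2G40950; NAC103, AT5G64060; IRE1A, AT2G17520; and IRE1B, AT5G24360) and 4 genes that act or respond downstream (the J-domain proteins ERDJ3A, AT3G08970, ERDJ3B, AT3G62600, and P58IPK, AT5G03160, and the gene TIN1, AT5G64510). The array annotation mapped every one of these probe sets to 1 locus.

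The study heated seedlings of the wild-type Col-0 accession in darkness to learn how heat changes the transcriptome and how light and temperature signalling meet. In the heat group, seedlings were held at 37 °C for 30 min in darkness (3 arrays). In the control group, seedlings stayed in darkness without heat (3 arrays). All seeds had been kept at 4 °C for 72 h and the plants then raised on solid medium at 23 °C under 16 h of light and 8 h of darkness. The study's design text gives an age of 10 days, while the array labels give 19, 20 and 21 days for heat replicates 1, 2 and 3 and 16, 17 and 18 days for control replicates 1, 2 and 3. Within each group the labelled age rises with the replicate number, and whether it is a true plant age is not known. The labelled ages of the groups do not overlap, and heat and labelled age cannot be fully told apart.

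When unfolded proteins gather in the ER lumen, plants raise the output of chaperones, folding enzymes and degradation factors through a pair of signalling arms. In one arm the membrane kinase and ribonuclease IRE1 cuts an unconventional intron out of the BZIP60 mRNA, which frees an active transcription factor. In the other arm the membrane-anchored factors bZIP28 and bZIP17 travel to the Golgi and are released by proteases. J-domain proteins of the lumen stimulate the ATPase of BiP, the ER Hsp70 chaperone, and hand unfolded clients to it.

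Of the 10 genes, 4 rose after heat in darkness and 0 fell in the limma fit (1 was lower at an unadjusted p under 0.05, as were 14.9% of all probe sets). ERDJ3A and TIN1 rose by more than 6 units on the log2 scale. The factors of the membrane-release arm, BZIP28 and BZIP17, rose by 1.48 and 0.84. The arrays read transcript levels and do not measure the release of these factors from the membrane. The genes of the IRE1 arm (BZIP60, IRE1A, IRE1B and NAC103, a NAC factor that acts downstream of bZIP60) and the J-protein genes ERDJ3B and P58IPK did not pass the test. IRE1B and NAC103 read at levels that cannot be told from background. The calls of BZIP28 and BZIP17 did not hold in every fit tried. BZIP60 passed as lower with 1 control array left out, as did 2719 of all 22746 probe sets tested. A gene passed when its adjusted p was below 0.05 in limma, a linear model fitted across all probe sets that shares their spread, with Benjamini-Hochberg adjustment over 22746 probe sets. Over all probe sets, 6.34% passed, 2.34% as higher and 4% as lower.

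Values are the deposited RMA values on a log2 scale, and every difference is heat minus control on that scale with limma's moderated standard error (SE). The array medians were 2.78 to 2.81 in heat and 2.84 to 2.94 in control. Across probe sets, Pearson correlations ran from 0.989 to 0.991 between heat arrays, from 0.976 to 0.988 between control arrays and from 0.941 to 0.954 across the groups. Control replicate 2 stood furthest from its group and was the lowest control array for 5 of the 10 genes (BZIP60, BZIP28, IRE1A, ERDJ3B and P58IPK), against 41.3% of all probe sets. The differences of the 10 genes and of the pathway genes named are given without it as well. The heat markers HSP101, a disaggregase, and HSFA2, a heat shock factor, rose by 8.19 (SE 0.23, limma adjusted p = 6.08e-07) and 7.64 (SE 0.27, adjusted p = 2.53e-06). All 4 probe sets for photosynthetic shoot markers stood at the 88.8th percentile or higher in both groups, and the root markers spanned the 12.9th to the 75.8th percentile. The sum of log2 values over the 5 root markers was 12.9 to 13.5 in heat arrays and 14.4 to 15.3 in control arrays, and 0 of the 5 passed (2 were lower at an unadjusted limma p under 0.05, against 14.9% of all probe sets). That sum over the 4 shoot markers was 41.6 to 42.2 in heat arrays and 40.7 to 42.0 in control arrays, and 0 of the 4 passed (1 was higher at such a p, against 6.48% of all probe sets). The part of tissue make-up in the results was not tested.

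BZIP28 encodes the membrane-bound bZIP factor that BiP holds in the ER until stress releases it. It read 6.06, 6.004 and 5.86 in heat replicates 1, 2 and 3, against 4.87, 4.02 and 4.58 in control replicates 1, 2 and 3. Every heat array lay above every control array, with a gap of 0.99 between the nearest arrays. Among all probe sets, 10.4% had all heat arrays above all control arrays. The group means were 5.97 ± 0.10 in heat and 4.49 ± 0.43 in control (SD, n = 3 each). The difference of 1.48 (SE 0.21, limma adjusted p = 0.00667) is a 2.79-fold rise with a 95% confidence interval of 1.99 to 3.92. Without control replicate 2 the difference was 1.24 (adjusted p = 0.00153). In whole seedlings, more transcript per cell and more cells carrying the transcript cannot be told apart.

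BZIP17 encodes a close relative of bZIP28 that is known from salt stress signalling and is released in the same way. Its values were 4.73, 4.76 and 5.16 in heat arrays, against 4.24, 4.07 and 3.82 in control arrays, so the groups did not overlap. The difference was 0.84 (SE 0.17, limma adjusted p = 0.0261), a 1.79-fold rise. The call ended without any single heat array or without control replicate 3 (0.70 to 0.91, adjusted p up to 0.0936), and it held without control replicate 2 (0.85, adjusted p = 0.0220). With the labelled age of each array as a covariate, neither factor passed (BZIP28 1.85, adjusted p = 0.321, and BZIP17 0.84, adjusted p = 0.919).

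The ratio of BZIP28 to BZIP17 within an array shows whether the paralogues moved by the same amount. The log2 ratio was 1.32, 1.25 and 0.70 in heat arrays and 0.63, -0.05 and 0.77 in control arrays. The highest control value lay above the lowest heat value. The mean difference of 0.64 gave p = 0.2 in a two-sided exact permutation test over the 6 arrays (0.3 after Benjamini-Hochberg adjustment over 3 pairs), and the smallest p that 3 against 3 arrays allow is 0.1. A test of this size cannot pass 0.05, so whether BZIP28 responded more than BZIP17 is not settled by it. Without control replicate 2 the difference was 0.39.

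BZIP60 encodes the factor whose mRNA IRE1 splices. The probe set gives the summed transcript level and does not separate spliced from unspliced mRNA. Heat arrays read 5.003, 5.22 and 4.98 and control arrays 5.70, 5.18 and 5.91. The control values 5.70 and 5.91 lay above all heat arrays, and only control replicate 2 fell within the heat range. The difference was -0.53 (SE 0.19, 95% confidence interval -0.98 to -0.08), with an unadjusted limma p of 0.0257 and an adjusted p of 0.164. Without control replicate 2 it was -0.74 and passed as lower (adjusted p = 0.0111), so 1 array decides this call. With any other array left out it ranged from -0.61 to -0.38 and did not pass. Without control replicate 2, 2719 of the 22746 probe sets passed as lower, against 909 with all arrays kept.

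IRE1A and IRE1B encode the paralogous ER membrane sensors that carry out the splicing. IRE1A read 4.62, 4.42 and 4.25 in heat arrays and 5.09, 4.28 and 4.75 in control arrays. These ranges overlapped, and the difference of -0.27 (SE 0.21, 95% confidence interval -0.76 to 0.21) did not pass (limma adjusted p = 0.501). It was -0.49 without control replicate 2 (adjusted p = 0.0824) and turned to 0.26 with the labelled age as a covariate.

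IRE1B read 2.09, 2.30 and 2.53 in heat arrays and 2.39, 2.48 and 2.39 in control arrays. Its difference was -0.11 (SE 0.14, 95% confidence interval -0.42 to 0.21, limma adjusted p = 0.682), and -0.08 without control replicate 2. Its mean ranked at the 39.9th percentile of all probe sets in heat and the 41.4th in control. The files give no detection call, so a value this low cannot be told from background. The difference of the IRE1A and IRE1B responses was -0.16 (exact permutation p = 0.7, adjusted 0.7), which shows neither equal nor unequal change, and it was -0.41 without control replicate 2.

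NAC103 read 1.96, 1.59 and 1.94 in heat arrays and 1.79, 1.90 and 1.897 in control arrays. The control arrays all lay inside the heat range. The difference was -0.03 (SE 0.13, 95% confidence interval -0.34 to 0.28, limma adjusted p = 0.916), and -0.0108 without control replicate 2. Its level stood at the 22.1th percentile in heat and the 26.4th in control, again a range in which transcript and background cannot be separated.

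**Figure D1:**
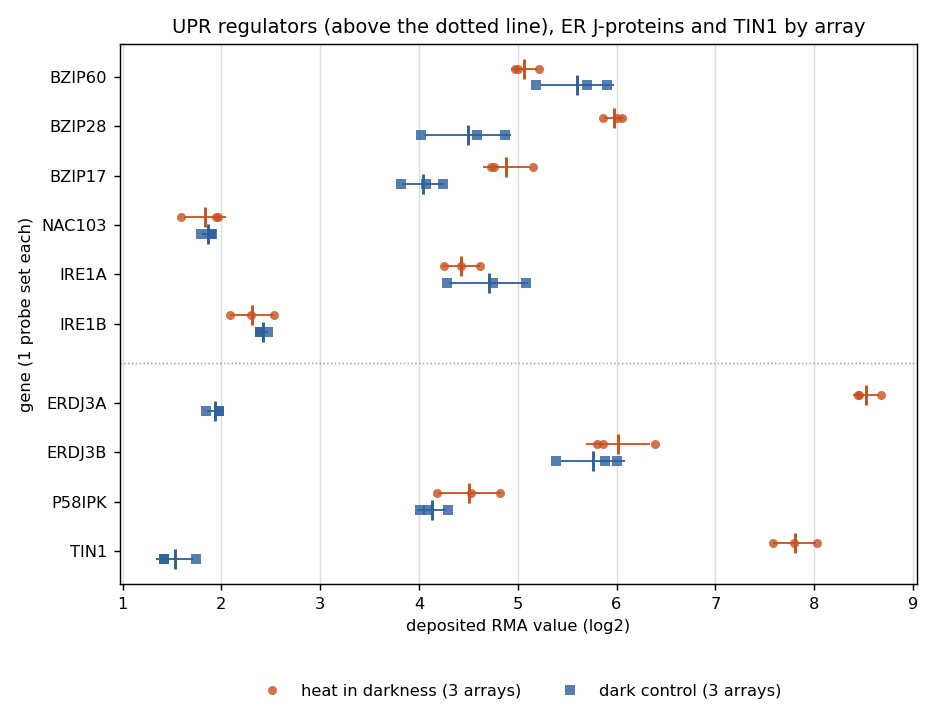
Deposited log2 values of the 10 genes on each array, with heat arrays (orange circles) drawn above control arrays (blue squares), vertical ticks at group means and horizontal bars of 1 SD (n = 3 each). ERDJ3A and TIN1 lie between 7.59 and 8.68 in heat and at or below 1.97 in control, BZIP28 and BZIP17 separate by less, and the other 6 genes overlap.

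ERDJ3A, also named TMS1, encodes an ER J-domain protein required for pollen tube growth at high temperature. Its values were 8.45, 8.68 and 8.44 in heat replicates 1, 2 and 3, against 1.97, 1.97 and 1.85 in control replicates 1, 2 and 3. All heat arrays lay at least 6.47 above all control arrays, and the spread within each group was small beside that gap. The means were 8.52 ± 0.13 in heat and 1.93 ± 0.07 in control (SD, n = 3 each). The difference of 6.59 (SE 0.12, limma adjusted p = 4.31e-08) corresponds to 96.5-fold on these values. The control level lies in the range that cannot be told from background, so the size of that fold is not fixed. In the authors' deposited table, the ratios of each heat array to the control array of the same number ran from 89.2 to 104.01.

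TIN1 was named for its induction by tunicamycin, an inhibitor of N-glycosylation that triggers ER stress, and is known to affect the pollen surface. Heat arrays read 7.79, 8.03 and 7.59 and control arrays 1.42, 1.42 and 1.74. The nearest arrays of the groups were 5.85 apart. Group means were 7.80 ± 0.22 in heat and 1.53 ± 0.19 in control (SD, n = 3 each), a difference of 6.28 (SE 0.15, limma adjusted p = 2.77e-07). That corresponds to 77.6-fold on these values, again over a control level that cannot be told from background, and the authors' deposited table gives ratios of 57.6 to 97.6. Without control replicate 2 the differences were 6.61 for ERDJ3A and 6.22 for TIN1, and both genes passed with every array left out in turn and in every other fit tried.

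The folds of these genes rest on dim control values. In control arrays ERDJ3A stood at the 28.9th percentile of all probe sets and TIN1 at the 10.3th, whereas in heat arrays they reached the 97.9th and the 96.4th. With every value below its array's median raised to that median, an alternative chosen after seeing the data, the differences were 5.62 for ERDJ3A and 4.91 for TIN1, or 49.3-fold and 30.0-fold. For both genes, all heat values lay above their array's median and all control values below it. The floor could therefore not change the direction, while the size of the fold depends on it.

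ERDJ3B encodes a J-domain protein that works with SDF2 and BiP in the ER lumen, known from the maturation of immune receptors. It read 5.80, 6.39 and 5.86 in heat arrays and 6.005, 5.39 and 5.88 in control arrays. The groups overlapped, and the difference of 0.26 (SE 0.21, 95% confidence interval -0.24 to 0.76) did not pass (limma adjusted p = 0.538). Without control replicate 2 it was 0.07. Its partner SDF2 read 6.64 ± 0.22 in heat and 6.35 ± 0.33 in control (SD, n = 3 each), a difference of 0.29 (adjusted p = 0.425), or 0.11 without control replicate 2 and 0.18 without heat replicate 2.

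P58IPK, the plant counterpart of an animal ER co-chaperone first described as a kinase inhibitor, read 4.18, 4.53 and 4.82 in heat arrays and 4.29, 4.01 and 4.09 in control arrays. Of the heat arrays, replicates 2 and 3 lay above all control arrays and replicate 1 lay among them. The difference was 0.38 (SE 0.18, 95% confidence interval -0.03 to 0.79, limma adjusted p = 0.268). It was 0.32 without control replicate 2 (adjusted p = 0.294).

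The ratio of ERDJ3A to ERDJ3B within an array compares the responses of the J-domain genes. On the log2 scale it was 2.65, 2.29 and 2.58 in heat arrays and -4.03, -3.42 and -4.04 in control arrays. These values do not overlap, and their means differ by 6.34, a size set in part by the dim control values of ERDJ3A. The exact permutation test gave p = 0.1, the smallest that 6 arrays allow (0.3 after adjustment over 3 pairs). Since these are ratios between probe sets, only their change between groups has a meaning.

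**Figure D2:**
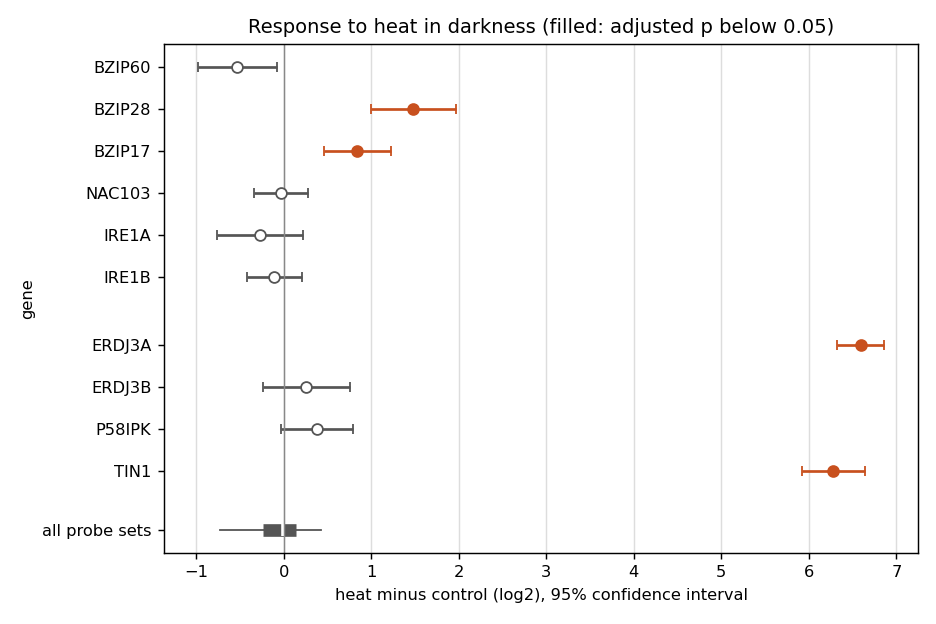
Heat minus control on the log2 scale for each gene, with limma's 95% confidence interval and filled symbols for an adjusted p below 0.05. The lowest row gives all 22746 probe sets, with a bar over the middle 50% and a line from the 5th (-0.73) to the 95th percentile (0.42). ERDJ3A and TIN1 stand at 6.59 and 6.28, and the intervals of NAC103, IRE1A, IRE1B, ERDJ3B and P58IPK cross 0.

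Set by role, 2 of the 6 regulators rose and 0 fell, with a median difference of -0.07 and a range of -0.53 to 1.48. Of the 4 downstream genes (the J-protein genes and TIN1), 2 rose and 0 fell, with a median of 3.33 and a range of 0.26 to 6.59. Over all probe sets tested, 2.34% rose and 4% fell, and the median was -0.01. The median of the downstream set falls between a pair of very large rises and a pair of small differences, so it describes none of its genes.

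Genes next to ERDJ3A and TIN1 on the chromosome did not pass the test. Of the 20 protein-coding genes directly before or after the 10 loci in the TAIR10.1 gene order, 16 had a probe set, and 1 of these passed (6.25%, against 6.34% of all probe sets). The genes on each side of ERDJ3A differed by 0.14 (AT3G08960) and -0.14 (AT3G08980), and those beside TIN1 by 0.02 (AT5G64500) and 0.25 (XRCC2, a recombination protein). The neighbour that passed was ERS1, an ethylene receptor gene next to BZIP17, which fell by 1.10 (SE 0.14, limma adjusted p = 0.00404). The neighbours were looked up after the values of the 10 genes were known.

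The same contrast was read for other genes of the ER stress pathway, in 34 probe sets. Of these, 4 rose and 1 fell, a share of 14.7% against 6.34% of all probe sets, with a median difference of 0.02. Without control replicate 2, 5 rose and 5 fell, while the share of all probe sets that passed was then 16.4%. The share over all probe sets includes dim ones. In the fit to the 11373 probe sets brighter than the median, 495 rose and 986 fell. Among the pathway genes kept in that fit, 5 rose and 2 fell. The 14.7% comes from the fit to all probe sets, so it is not set against these counts. Whether the pathway genes passed more often than equally bright probe sets was not tested. The same limit applies to the shares of all probe sets given for each list below.

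Among other regulators and membrane components of the response, 2 of 7 rose, against 2.34% of all probe sets. BI1 encodes an ER membrane protein that restrains cell death. It read 8.74, 8.91 and 8.82 in heat arrays, against 6.96, 6.18 and 6.65 in control arrays. The groups were far apart, with a difference of 2.23 (SE 0.19, limma adjusted p = 0.0004996), or 2.02 without control replicate 2. NAC062, a membrane-tethered NAC factor that moves to the nucleus under ER stress, rose by 1.08 (SE 0.25, adjusted p = 0.0494), and that call ended without any single heat array or control replicate 3 (adjusted p up to 0.190) and held without control replicate 2 (0.78). The proteases that release bZIP28, S1P and S2P, differed by -0.0017 (adjusted p = 0.995) and -0.05 (adjusted p = 0.845), or -0.11 and -0.12 without control replicate 2. Centring on array medians adds 0.11 to every difference, so the sign of values this small depends on the scaling. S2P stood at the 40.9th percentile in heat and in control, a level that cannot be told from background.

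The partners of the J-domain proteins gave 1 rise among 7 probe sets, while 2.34% of all probe sets rose. The probe set shared by BIP1 and BIP2, which encode the main BiP proteins, read 8.90, 9.23 and 8.94 in heat arrays and 8.35, 7.74 and 7.97 in control arrays. It rose by 1.004 (SE 0.18, limma adjusted p = 0.0169), a call that ended without any single heat array or control replicate 3 (adjusted p up to 0.0776) and held without control replicate 2 (0.86). BIP3, the stress-inducible BiP gene, read 1.597 ± 0.07 in heat and 1.57 ± 0.21 in control (SD, n = 3 each), near the bottom of the arrays, with a difference of 0.03 (adjusted p = 0.915), or 0.15 without control replicate 2.

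In ER-associated degradation, which exports misfolded proteins for destruction, 1 of 8 rose, against 2.34% of all probe sets. DER1, a derlin of the export channel, read 7.79, 8.05 and 7.85 in heat arrays and 4.61, 4.26 and 4.59 in control arrays. The difference was 3.41 (SE 0.14, limma adjusted p = 6.07e-06), or 3.29 without control replicate 2. A second and much dimmer DER1 probe set read 1.57 in heat and 1.25 in control and did not pass (0.31, adjusted p = 0.227), and the mean of both gave 1.86. Of 5 calnexin and calreticulin genes, 1 fell, against 4% of all probe sets. This was the calreticulin CRT1A, which fell by 0.81 (limma adjusted p = 0.0196). Its call was lost when control replicate 1, control replicate 3, heat replicate 1 or heat replicate 3 was left out. It held without control replicate 2 (-0.81). Of 7 disulfide-forming enzymes 0 passed in limma, with a median of -0.28 (1 higher and 3 lower at an unadjusted p under 0.05, against 6.48% and 14.9% of all probe sets). When labelled age entered the fit, DER1 alone of these pathway genes kept its call. The differences were then 2.39 for BI1 (adjusted p = 0.128), 1.25 for BIP1 and BIP2 (adjusted p = 0.582), 1.07 for NAC062 and -0.51 for CRT1A, so the calls of BI1 and of BIP1 and BIP2 ended without a smaller difference.

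**Figure D3:**
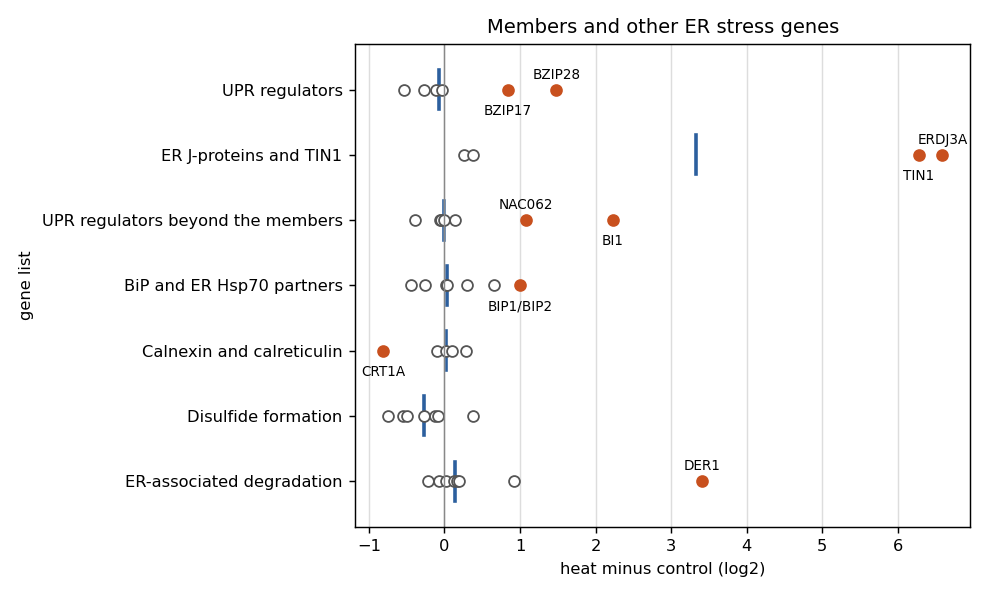
Heat minus control on the log2 scale for the 10 genes and 34 other probe sets of the ER stress pathway, 1 row per list, with filled and named symbols for an adjusted p below 0.05 and a blue tick at each list's median. Next to ERDJ3A (6.59) and TIN1 (6.28), the largest rises are DER1 (3.41) and BI1 (2.23).

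**Figure D4:**
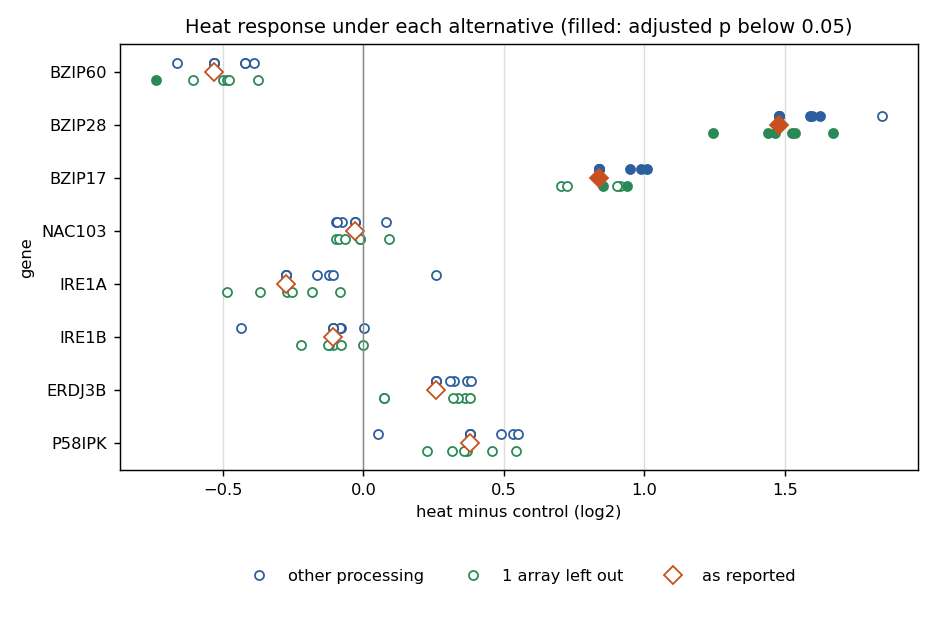
Heat minus control on the log2 scale for the 8 genes with smaller differences, as reported (diamond), under other processing (blue) and with 1 array left out (green), filled for an adjusted p below 0.05. BZIP28 lost its call only with the labelled age as a covariate, BZIP17 lost it under 6 of 14 alternatives, and BZIP60 passed only without control replicate 2.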

How the data were processed

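Total RNA was hybridised to Affymetrix arrays, 3 heat and 3 control. The authors deposited log2 values, made with RMA per the submitters' processing notes; the software, version and background step of RMA were not stated there. A second deposited table held the same values (largest gap 0) with linear ratios of heat over control arrays of the same number, and gene identifiers, which were matched to the TAIR10.1 gene table (20482 of 20653 single-gene probe sets matched). After 64 control probe sets were left out, limma 3.58.1 in R 4.3.3 was fitted to 22746 probe sets with group as the only term (two-sided). The brightest single-locus probe set stood for a locus, or a shared one where there was no other. A shared probe set was used for BIP1 and BIP2 and for some of the shoot markers and neighbours. The fit was tested on simulated data first. With 50 probe sets changed at each size, 54% of changes of 1 log2 unit and 90% of changes of 2 units passed. Changes near 1 unit were thus often missed there.

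The genes and lists were chosen with earlier results of these data known. Named genes are the 10 members, other pathway genes that passed, BIP1, BIP2, BIP3, S1P, S2P, BI1, SDF2, HSP101 and HSFA2. ERS1, the neighbours and the second DER1 probe set were added after values were seen. Alternatives were median centring, quantile normalization, cyclic loess, an intensity trend, a filter on dim probe sets, labelled age, the replicate number as a block and each array left out. Arrays carry no read depth, so their number limits the precision. The labels do not say whether replicates were grown separately, so the p-values reflect differences among these arrays, possibly technical ones. A planned look at promoter motifs needed sequences that were not used here.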

Additional observations from a re-analysis of the deposited data

How the results depend on the processing

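ERDJ3A, TIN1 and DER1 kept their direction and their call under each alternative with a test. Over all probe sets, 533 rose and 909 fell as reported (37.0% of calls higher). Centring on array medians, which moved the median difference of all probe sets by 0.11, gave 671 and 679 (49.7%), quantile normalization 677 and 871, and cyclic loess 713 and 688 (50.9%). The labelled age as a covariate gave 129 and 10, with 2 of the 10 genes higher and 1 higher and 0 lower among the other pathway genes. The fit uses 1 more term on 6 arrays. Whether same-numbered arrays were handled together is not known. Deviations of same-numbered arrays from their group means correlated at -0.26, -0.24 and -0.24, and those of differently numbered arrays at -0.02 to 0.26. The deviations cancel within each group, so these correlations cannot settle whether the arrays are paired. With the replicate block, 396 rose and 410 fell over all probe sets, 3 of the 10 genes rose (BZIP17 adjusted p = 0.105), and 2 other pathway genes rose and 0 fell. Quantile normalization and the filter on dim probe sets each gave 2 falls among other pathway genes. The filter also left out NAC103 and IRE1B, and the regulators' median was then 0.28.

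With 1 array left out, 371 to 1008 probe sets rose and 275 to 2719 fell, the highest of both without control replicate 2. Of the 10 genes, 3 to 4 rose and 0 to 1 fell, and of other pathway genes 2 to 5 rose and 0 to 5 fell. The difference of the IRE1A and IRE1B responses ran from -0.41 to 0.0392, and that of BZIP28 and BZIP17 from 0.39 to 0.84. Small differences changed sign in several settings. Median centring adds the same 0.11 to every difference, and for the other settings the cause was not tested. NAC103 was 0.0799 after median centring (-0.0964 to 0.0901 with 1 array left out), IRE1B 0.0011 after median centring and IRE1A 0.26 with age. S1P was 0.11, 0.16 and 0.17 after median centring, quantile normalization and cyclic loess and 0.24 with age (-0.11 to 0.0865 with 1 array left out). S2P was 0.0635 after median centring and 0.14 with age (-0.12 to 0.0215), and BIP3 was -0.0403 after quantile normalization and -0.0505 after cyclic loess (-0.0499 to 0.15).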
